A study of Homo sapiens with 42 samples.

Results

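The constitutive proteasome subunits are the genes whose symbols begin with PSMA, PSMB, PSMC or PSMD, without the immunoproteasome genes PSMB8, PSMB9 and PSMB10. They were taken from the array's single-gene probes, and where a gene had several, the one that was brightest on average (mean log2 intensity over all arrays) stood for it. The rule gave 26 genes, measured by 37 probes, among 5631 genes with a single-gene probe. The 12 core genes code for 5 alpha subunits (PSMA2, PSMA3, PSMA4, PSMA5 and PSMA7) and 7 beta subunits (PSMB1 to PSMB7). The 14 cap genes code for 5 ATPases (PSMC1, PSMC2, PSMC3, PSMC4 and PSMC6), 7 other cap subunits (PSMD1, PSMD3, PSMD4, PSMD6, PSMD8, PSMD11 and PSMD14) and the assembly chaperones PSMD5 and PSMD10. PSMA1, PSMA6, PSMC5, PSMD2 and other genes of these families were not analysed here, so the core and cap sets are incomplete.

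Total RNA came from Hep3B, an established human hepatoma line, and 1 array was made per culture. Cultures received CM, a medium rich in pro-inflammatory cytokines, or NCM, the control medium, and were taken at T0, at 15 min and 30 min, and at 1 h, 3 h, 6 h and 16 h. The question stated for the series is how mRNA abundance in CM differs from that in NCM over time. At every time, each of 3 independent experiments contributed a CM and an NCM culture that started from the same trypsinized batch, so that 21 CM arrays and 21 NCM arrays form 21 pairs, 3 at each time. The labels do not name the cytokines or their doses. RNA was taken from whole cultures and the arrays were put on a common scale, so the values are relative. Fewer cells that express a gene and less of its RNA per cell cannot be told apart.

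The proteasome degrades proteins that carry ubiquitin chains. Its core is a barrel of stacked rings, in which outer alpha rings form a gate and inner beta rings hold the proteolytic sites. The cap binds ubiquitin chains, removes them, and unfolds and threads the substrate through a ring of ATPases. In cells exposed to interferons, inducible beta subunits can take the place of the constitutive catalytic ones. Transcription factors of the NRF1 and NRF2 family, which bind antioxidant response elements, are known to act on proteasome genes, and NF-Y and ETS factors bind CCAAT and GGAA elements in many promoters.

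Promoter sequences are given for PSMC3, whose CM change had the smallest p-value of all members, for PSMB5, the core gene with the smallest p-value at 16 h, and for 4 members with a match to the core of the antioxidant response element. Windows from 250 bases before to 50 bases after the gene's start were taken from RefSeq (build GRCh38.p14) and matched 21 of the 26 members. PSMA7, PSMB1, PSMB6, PSMB7 and PSMD4 were not matched. PSMC3 is shown over the 120 bases before its start, at chr11:47426440-47426559 on the minus strand, which is the strand of the gene, with the CCAAT letters in capitals:
PSMC3: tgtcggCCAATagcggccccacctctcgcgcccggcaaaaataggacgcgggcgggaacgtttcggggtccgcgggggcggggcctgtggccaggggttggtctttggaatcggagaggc
PSMB5 is shown around its CCAAT letters at chr14:23035370-23035394, also on the minus strand and the strand of the gene:
PSMB5: attattttacCCAATtttagaaggt
The element TGACNNNGC, searched on both strands, is shown in capitals for PSMA4 at chr15:78540650-78540678 (plus strand), PSMB3 at chr17:38752627-38752655 (plus strand), PSMD3 at chr17:39980760-39980788 (plus strand) and PSMD5 at chr9:120843038-120843066 (minus strand), each on the gene's strand:
PSMA4: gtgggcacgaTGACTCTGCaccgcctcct
PSMB3: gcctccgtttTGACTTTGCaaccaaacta
PSMD3: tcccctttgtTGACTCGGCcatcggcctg
PSMD5: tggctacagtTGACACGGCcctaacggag

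TGACNNNGC occurred in the windows of 2 of 8 core genes and 4 of 13 cap genes, 28.6% of the matched members, against 13.3% of all 35116 windows and 20.7% of 4692 array genes. CCAAT, also searched on both strands, occurred for 7 of 8 core and 7 of 13 cap genes, 66.7% of the members, against 34.6% of all windows and 43.6% of array genes. CGGAAG, an ETS-type element, occurred for 4 of 8 core and 8 of 13 cap genes, 57.1%, against 19.5% and 37.4%. A gene of the array could have several windows, and 0 matches to different elements overlapped in the members' windows. These letters describe the windows and no binding was measured.

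The deposited values are linear intensities with a mean between 0.999 and 1.00 on each array and a median between 0.354 and 0.807. They were quantile normalized and put on a log2 scale, and every change below is CM minus NCM on that scale, with its standard error (SE) from limma. Hepatocyte markers (ALB, AFP, APOA1, APOB, TTR, TF, SERPINA1, FGB and FGA) were all measured, and their mean levels lay between the 69.94th and 98.19th percentile of the probes. Their summed linear level was 17.9 to 27.4 in CM and 18.3 to 26.9 in NCM. Of the leukocyte markers 4 of 6 were measured and summed to 1.30 to 2.94 in CM and 1.64 to 2.53 in NCM. For fibroblast markers, 2 of 4 measured, the sums were 0.626 to 1.86 in CM and 0.664 to 1.86 in NCM, and for endothelial markers, 2 of 3 measured, 0.609 to 1.06 in CM and 0.549 to 1.42 in NCM. These 3 lists have fewer measured genes than the hepatocyte list. Mean levels lay between percentiles 20.27 and 70.46 for leukocyte, 27.78 and 58.93 for fibroblast, and 8.97 and 47.87 for endothelial markers. The leukocyte marker CD14, at percentile 70.46, lay above the hepatocyte marker APOB, at 69.94. The ranges of the summed levels in the 2 media overlapped for each list. The arrays fell into a cluster of 24 and 3 smaller clusters with 18 arrays together when grouped without the members' probes. The larger cluster held 2, 12 and 10 arrays of experiments 1, 2 and 3, the other clusters 12, 2 and 4, and no pair was split.

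No member but PSMD5 had a value at the floor, and the core genes had a higher median rank among the probes than the cap genes. The median percentile among all probes was 73.06 for the core and 58.71 for the cap, which describes probe brightness and not relative transcript abundance. PSMB7, the trypsin-like catalytic subunit, was the brightest core probe, at 2.50 ± 0.23 in CM and 2.54 ± 0.23 in NCM (mean log2 intensity ± SD, n = 21 arrays each). PSMA4, of the alpha ring, was the dimmest core probe at -1.07 ± 0.59 in CM and -1.01 ± 0.51 in NCM. Among cap genes PSMD10, also called gankyrin, was brightest, at 1.47 ± 0.24 in CM and 1.49 ± 0.15 in NCM, and the ATPase PSMC6 dimmest, at -1.45 ± 0.52 in CM and -1.45 ± 0.43 in NCM. The other probe of PSMD10 had a mean of -1.51 over all arrays and r = -0.43 to the probe shown. Its change was -0.64 at T0 and 0.82 at 1 h (limma adjusted p = 0.970 and 0.977), against 0.12 and 0.01 for the probe shown.

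The subunit genes showed no change in CM that passed the test at any time. In limma's fit, which compared the media within pairs, 0 of 26 members had an adjusted p under 0.05 at any of the 7 times or in the mean over the times 3 h, 6 h and 16 h. The background was 0% of 13824 probes at each time up to 6 h, 0.00723% at 16 h and 0.0434% in the mean over 3 times. The lowest adjusted p of a member was 0.513, for PSMC3 at 16 h. At an unadjusted p under 0.05 there were 1, 2, 1, 2, 0, 0 and 2 members at the 7 times in order, and 2 in the mean over 3 times. The shares of all probes under that limit were 5.06% at T0, 3.56% at 15 min, 3.51% at 30 min, 4.38% at 1 h, 3.26% at 3 h, 3.76% at 6 h, 4.76% at 16 h and 5.98% in the mean. These member counts are close to what those shares of 26 genes come to. An F test over the 6 times after T0 called 0 members (0% of probes), with 1 member, PSMC3, at an unadjusted p under 0.05, against 2.99% of probes.

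The precision limits what could have been seen. The 95% interval of a member's change reached a median of 0.60 to either side at a single time, ranging between 0.32 and 0.87, and of 0.34 in the mean over 3 times. Intervals lay wholly within 1 log2 unit of 0, which is a 2-fold change, for 21 of 26 members at T0, 18 at 15 min, 21 at 30 min, 22 at 1 h, 23 at 3 h, 21 at 6 h and 21 at 16 h. In the mean over 3 h, 6 h and 16 h this held for 26 of 26. Of all 5631 genes, it held for 4518 at T0, 4739 at 15 min, 4619 at 30 min and 4646 at 1 h. It held for 4767 of them at 3 h, 4750 at 6 h, 4639 at 16 h and 5565 in the mean, so it is not particular to the members. Each interval is that of 1 probe per gene. For the remaining members at each time the interval reached past that size. The fit had no term for experiment, so the 9 pairs of the mean over 3 times were treated as independent. SEs, intervals and pair counts of that mean do not allow for a link between pairs of the same experiment.

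**Figure D1:**
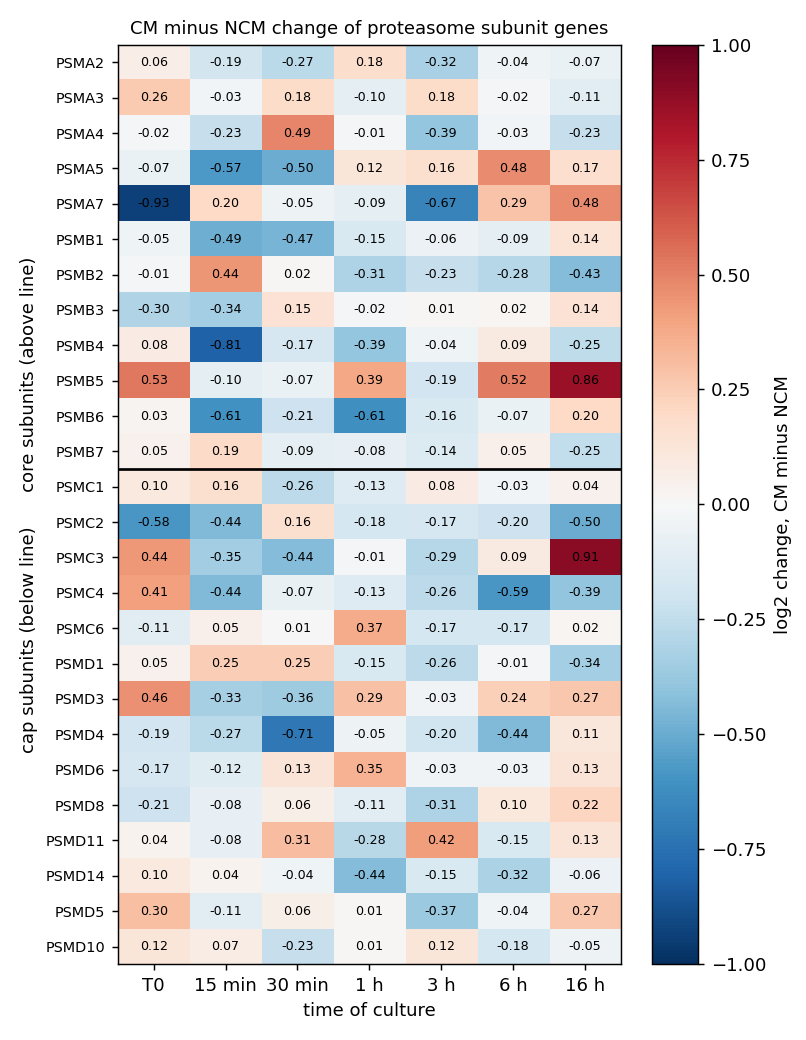
Log2 change (CM minus NCM) of each member at each time of culture, with core genes above the line and cap genes below it, and 1 column per time. The values scatter on both sides of 0, and the highest, 0.91, is that of PSMC3 at 16 h.

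Core and cap medians lay between -0.21 and 0.08 at the 7 times. The median change of the 12 core genes was 0.01 at T0, -0.21 at 15 min, -0.08 at 30 min, -0.08 at 1 h, -0.15 at 3 h, -0.0031 at 6 h and 0.04 at 16 h. The median of the 14 cap genes was 0.07, -0.10, -0.02, -0.08, -0.17, -0.10 and 0.08 at the same times. Over all 5631 genes the median stayed between -0.02 and 0.02. Of the core genes 6, 3, 4, 3, 3, 6 and 6 of 12 lay above 0, and of the cap genes 9, 5, 7, 5, 3, 3 and 9 of 14. Over all genes between 47.3% and 53.0% lay above 0. The largest shortfall for both parts together was at 3 h, where 6 of 26 members, 23.1%, lay above 0, against 49.9% of all genes.

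At 15 min the core median was -0.22, -0.19 and -0.17 in the pairs of experiments 1, 2 and 3, below 0 in each, while the cap median was 0.11, -0.0097 and -0.23. The core median at 15 min stayed below 0 under all alternatives, between -0.27 and -0.15. At 15 min, 5 of 12 core and 1 of 14 cap genes were lower in CM in 3 of 3 pairs (background 9.51% of probes), and 2 core and 0 cap genes were higher in 3 of 3 pairs (11.9%). At 3 h, 2 core and 5 cap genes were lower in every pair (background 11.9%), and 1 core and 2 cap genes higher (14.6%). At the other times the members lower in every pair numbered 2 at T0 (9.19% of probes), 7 at 30 min (11.7%), 2 at 1 h (12.8%), 6 at 6 h (11.3%) and 5 at 16 h (12.6%). Those higher in every pair numbered 6 at T0 (9.47%), 1 at 30 min (8.8%), 0 at 1 h (15.6%), 1 at 6 h (13.3%) and 4 at 16 h (13.3%). The cap median at 3 h was -0.09, -0.18 and -0.13 by experiment, and stayed below 0 under all alternatives, while the core median was 0.09, -0.35 and -0.23 and became 0.0034 without experiment 2 and -0.34 without experiment 1.

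The difference of the core median minus the cap median was -0.06 at T0, -0.11 at 15 min, -0.06 at 30 min, -0.0034 at 1 h, 0.02 at 3 h, 0.09 at 6 h and -0.04 at 16 h, with SDs between 0.10 and 0.21 over the 3 pairs of a time. Core lay above cap in 3 of 3 pairs at 6 h only, by 0.16, 0.42 and 0.00084 in experiments 1, 2 and 3. Without experiment 2 the difference at 6 h was -0.14. In the mean over 3 h, 6 h and 16 h it was 0.04, with core above cap in 5 of 9 pairs, and it was -0.08 without experiment 1 and 0.13 without experiment 3. Leaving out 1 experiment at a time gave differences on both sides of 0 at every time but 15 min, where they lay between -0.11 and -0.04. No p-value is given for these medians, because the members were grouped with earlier results known. Experiment 1 stood apart at 16 h, with core and cap medians of 0.22 and 0.20. They were -0.18 and -0.06 in experiment 2 and -0.18 and -0.02 in experiment 3. The pair of experiment 1 was also the only one at 16 h outside the larger array cluster. Experiment and array cluster cannot be told apart there. Without experiment 1 the cap median at 16 h was -0.12, and the core median -0.19.

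**Figure D2:**
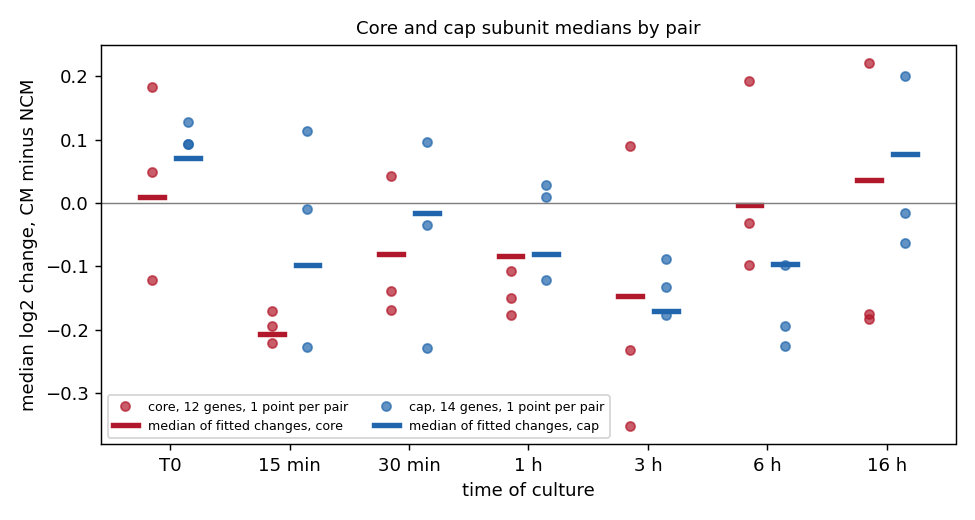
Median log2 change (CM minus NCM) of the 12 core and the 14 cap genes at each time, with 1 point per pair of cultures and a bar for the median of the fitted changes. The 3 core points lie below 0 at 15 min and at 1 h, and those of experiment 1 at 16 h lie above the other pairs.

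Among the beta subunits, the catalytic genes PSMB5, PSMB6 and PSMB7 did not share a direction at 16 h. PSMB5, the chymotrypsin-like subunit, had log2 intensities of -0.83, 0.24 and -1.06 in CM (experiments 1, 2 and 3) and -1.73, -1.77 and -0.74 in NCM at 16 h. The groups overlapped, and CM was higher in experiments 1 and 2 and lower in experiment 3. Its change was 0.86 (SE 0.37, 95% interval 0.08 to 1.64, unadjusted p = 0.0316, limma adjusted p = 0.942). At 6 h it was 0.52 (SE 0.37), with -0.68, -0.47 and -1.13 in CM and -1.10, -1.25 and -1.49 in NCM, higher in 3 of 3 pairs. At 1 h the 3 pairs disagreed, with 0.10, -1.32 and -1.09 in CM and -1.67, -0.85 and -0.94 in NCM. Over the alternatives the change at 16 h ran between 0.29 and 1.46, with adjusted p between 0.858 and 1.00. It was 0.29 without experiment 2 and 1.46 without experiment 3, and the change at 6 h became -0.01 with the change at T0 subtracted.

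PSMB6, the caspase-like subunit, had -0.13, -0.02 and -0.08 in CM at 15 min, against 1.46, 0.02 and 0.12 in NCM. The groups did not overlap, but the distance between them was wide in experiment 1 alone. The change was -0.61 (SE 0.26, unadjusted p = 0.0309, adjusted p = 1.00), and -0.12 without experiment 1. At 1 h PSMB6 had 0.40, -0.64 and -0.07 in CM and 1.21, 0.15 and 0.17 in NCM, a change of -0.61 again (SE 0.26, unadjusted p = 0.0303, adjusted p = 0.977), lower in 3 of 3 pairs. At 16 h its change was 0.20 (SE 0.26), and 0.08 without experiment 2. The other 3 probes of PSMB6 gave -0.07, -0.13 and -0.11 at 15 min, and -0.30, -0.36 and -0.37 at 1 h, below 0 like the probe shown.

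PSMB7, the trypsin-like subunit, was the most tightly measured core gene. At 16 h it had 2.38, 2.61 and 2.57 in CM and 2.76, 2.79 and 2.76 in NCM, with no overlap, and a change of -0.25 (SE 0.15, adjusted p = 0.942). Its other probe gave 0.26 and was higher in 3 of 3 pairs, so the probes of PSMB7 differed in sign. The mean of both probes, and median centring of the arrays, turned the change of PSMB7 above 0 at 16 h and in the mean over 3 times. In the mean over 3 h, 6 h and 16 h PSMB7 had -0.11, with a 95% interval between -0.29 and 0.07, and -0.05 without experiment 1.

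The beta subunit PSMB4, which is not catalytic, had the smallest p of the core at 15 min. It had -1.07, -0.66 and -0.49 in CM and 0.35, -0.09 and -0.06 in NCM, without overlap. The change was -0.81 (SE 0.30, 95% interval -1.43 to -0.19, unadjusted p = 0.0128, adjusted p = 1.00), and -0.50 without experiment 1. At 30 min it was -0.17 (SE 0.30), and above 0 with values as deposited. PSMB2, another structural beta subunit, was on the other side at 15 min, with 0.62, 0.22 and 0.30 in CM against -0.12, -0.25 and 0.20 in NCM. Its change there was 0.44, and 0.29 without experiment 1. The other probe of PSMB2 gave 0.09 at 15 min, higher in 2 of 3 pairs. In the mean over 3 h, 6 h and 16 h PSMB2 was -0.32 (SE 0.13, 95% interval -0.58 to -0.05, unadjusted p = 0.0204, adjusted p = 0.825), lower in 8 of 9 pairs. Without experiment 2 it was -0.20. Its other probe, with different accessions, gave -0.09 in that mean, with 4 pairs higher and 5 lower. At 16 h alone the probe shown had -0.75, -0.10 and 0.25 in CM and -0.29, 0.71 and 0.28 in NCM. Those ranges overlap widely, and without experiment 2 the change there was -0.25 in place of -0.43. The other probe gave -0.03 at 16 h and was higher in 2 of 3 pairs.

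Of the alpha ring genes, PSMA7 and PSMA5 had the smallest p-values. PSMA7 had -2.44, -0.99 and -0.10 in CM at T0 and -0.07, -0.78 and 0.12 in NCM, a change of -0.93 (SE 0.42, 95% interval -1.80 to -0.07, unadjusted p = 0.0360, adjusted p = 0.973). The difference at T0, the start of the time course, rested mostly on the pair of experiment 1, and was -0.21 without it. At 3 h PSMA7 had -0.74, -0.34 and -0.90 in CM, below the -0.27, 0.14 and 0.16 in NCM, with a change of -0.67 (SE 0.42). With the change at T0 subtracted, that at 3 h was above 0. PSMA5 was -0.57 (SE 0.32) at 15 min and -0.50 (SE 0.32) at 30 min, lower in 3 of 3 pairs at both, and -0.36 at 15 min without experiment 2. Its other 3 probes, with the same accessions, gave 0.22, -0.71 and -0.24 at 15 min and -0.12, 0.15 and -0.30 at 30 min. At 6 h PSMA5 had 0.48 (SE 0.32), from pair differences of 1.68, 0.18 and -0.44 in experiments 1, 2 and 3. Without experiment 1 it was -0.13, and without experiment 3 it was 0.93. The 4 probes gave 0.48, 0.56, -0.39 and -0.23 at 6 h. PSMA2, PSMA3 and PSMA4 had no unadjusted p under 0.05 at any time.

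Among the ATPases of the cap, PSMC3 had the smallest p-value of any member. At 16 h it had -0.25, -0.63 and -0.46 in CM and -0.58, -1.85 and -1.63 in NCM. CM was higher in 3 of 3 pairs, though 1 NCM value lay within the CM range. The change was 0.91, 1.87-fold (SE 0.22, 95% interval 0.45 to 1.36, unadjusted p = 0.00052, adjusted p = 0.513). The mean in NCM at 16 h, -1.35, was the lowest of the 7 NCM times, while the mean in CM at 16 h, -0.45, was within the range of its other times. Among all alternatives the change at 16 h stayed above 0, between 0.47 and 1.20, with adjusted p between 0.318 and 1.00. Some alternatives, such as the filter of dim probes, cannot move the change of a gene with 1 probe.

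At 30 min PSMC3 was on the other side, with -0.40, -0.56 and -0.59 in CM and 0.11, -0.03 and -0.31 in NCM. There was no overlap, and the change was -0.44 (SE 0.22). At T0 it was 0.44 (SE 0.22), with -0.11, -0.10 and -0.48 in CM and -0.33, -0.90 and -0.76 in NCM, higher in 3 of 3 pairs, and 0.25 without experiment 2. At 15 min the change was -0.35 (SE 0.22), from pair differences of -0.18, -0.72 and -0.15, and -0.16 without experiment 2. The change at 16 h minus that at 30 min was 1.34 (unadjusted p = 0.000329, adjusted p = 0.582). Across the 21 pairs of times, 0 members passed this test of a difference between changes, and the background was 0% of probes in each.

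**Figure D3:**
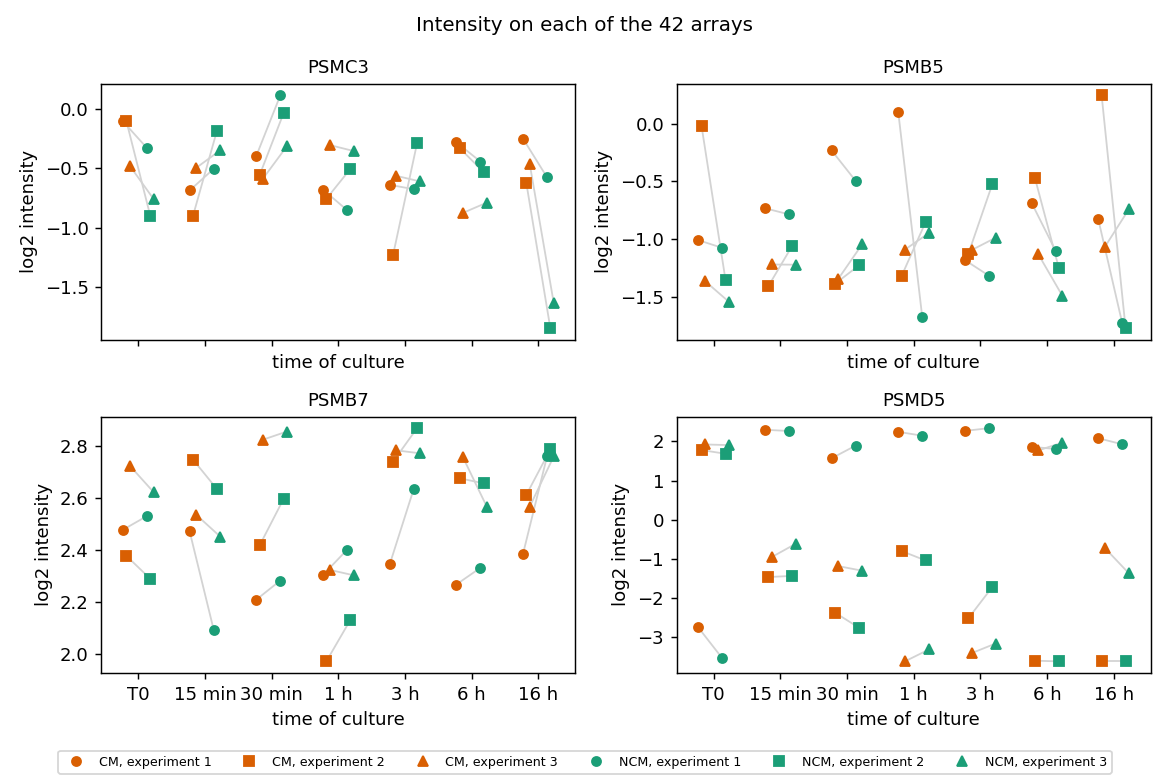
Log2 intensity of PSMC3, PSMB5, PSMB7 and PSMD5 on each of the 42 arrays by time, with CM left of NCM at each time, a symbol per experiment and a line joining each pair. At 16 h the 3 CM values of PSMC3 lie between -0.63 and -0.25, and 2 of 3 NCM values lie below -1.6.

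PSMC4 had the cap's smallest p at 6 h and in the mean over 3 h, 6 h and 16 h. At 6 h it had -1.82, -2.56 and -0.40 in CM, each below its pair's -1.45, -1.29 and -0.29 in NCM, with a change of -0.59 (SE 0.30), and -0.24 without experiment 2. At 16 h it had -1.71, -2.01 and -0.88 in CM and -1.43, -1.13 and -0.85 in NCM. The mean change was -0.41 (SE 0.17, 95% interval -0.77 to -0.06, unadjusted p = 0.0243, adjusted p = 0.825), lower in 8 of 9 pairs. Under the alternatives it ran between -0.82 and -0.26, the smallest without experiment 2. No member was in 1 direction in 9 of 9 pairs (background 0.441% of probes higher and 0.21% lower).

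PSMC2 at 16 h had -1.11, -1.48 and -1.25 in CM and -0.90, -0.82 and -0.63 in NCM, without overlap, and a change of -0.50 (SE 0.32, adjusted p = 0.942). Its other probes gave -0.25 and 0.27, so they did not share its sign throughout. With the change at T0 subtracted, that of PSMC2 was above 0. PSMC1 and PSMC6 had changes between -0.26 and 0.37 over the 7 times. The ATPases as a class had median changes between -0.35, at 15 min, and 0.10, at T0.

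PSMD4, a ubiquitin receptor of the cap, had 0.76, -0.12 and -0.29 in CM and 0.92, 1.47 and 0.10 in NCM at 30 min. CM was lower in every pair, with a wide gap in experiment 2, and the change was -0.71 (SE 0.29, unadjusted p = 0.0241, adjusted p = 0.997), and -0.27 without experiment 2. At 6 h PSMD4 had -0.36, -0.01 and -0.31 in CM, below 0.01, 0.53 and 0.10 in NCM without overlap, and a change of -0.44 (SE 0.29). PSMD14, the deubiquitinase that removes ubiquitin chains at the cap, had -0.76, -1.27 and -1.02 in CM and -0.22, -0.68 and -0.85 in NCM at 1 h, a change of -0.44 (SE 0.20, unadjusted p = 0.0437, adjusted p = 0.977). Over the mean of 3 times PSMD14 was -0.17 (SE 0.12) and lower in 8 of 9 pairs, with -0.10 without experiment 2 and -0.26 without experiment 1. At 30 min the lid gene PSMD3 had -0.63, -0.94 and -0.84 in CM, below -0.58, -0.30 and -0.46 in NCM, with a change of -0.36 (SE 0.32, adjusted p = 0.997), and -0.22 without experiment 2.

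Counted over the 26 members and 7 times, the values of the media did not overlap in 9 of 182 cases, 4.95%, against 4.15% over all probes and times. CM was lower in 8 of them, 4.40% of the cases, against 2.06% over all probes and times. The cases share genes and arrays, and no test was made of these shares.

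**Figure D4:**
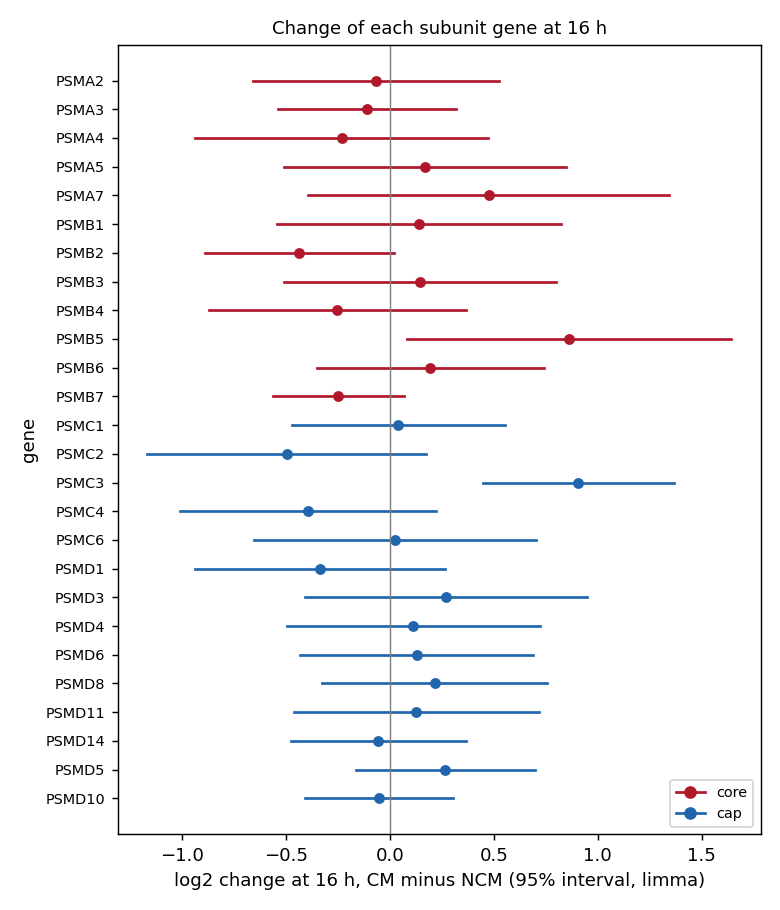
Log2 change (CM minus NCM) at 16 h of each member, with points for the change and bars for limma's 95% interval, core genes in red and cap genes in blue. The intervals of PSMB5 and PSMC3 do not include 0, and PSMB5 has an adjusted p of 0.942 and PSMC3 one of 0.513.

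PSMD5, an assembly chaperone of the cap, was the one member with 2 separate levels. On the 24 arrays of the larger cluster its log2 intensity lay between -3.62 and -0.73 in CM and between -3.62 and -0.62 in NCM. On the other 18 arrays it lay between 1.57 and 2.30 in CM and between 1.68 and 2.34 in NCM. The deposited intensities were -0.0370 to 0.509 on the 24 arrays and 2.75 to 5.82 on the other 18. The SD over the 42 arrays was 2.30, while the SD of the 21 pair differences was 0.34, and 24 probes (0.174%) had a larger SD over the arrays. Another 169 probes correlated with it at r over 0.8 across the 42 arrays, which share batches of cells and the array clusters. The level of PSMD5 thus went with the array cluster and not with the medium. At 3 h it had 2.27, -2.52 and -3.41 in CM and 2.34, -1.72 and -3.17 in NCM, a change of -0.37 (SE 0.21), and -0.16 without experiment 2. At the floor were 4 of its 42 values.

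Other members differed less between the clusters, with the mean on the other 18 arrays minus that on the larger cluster at -0.78 for PSMC1 and -0.63 for PSMD1. Within the larger cluster (5 pairs) the core median over 3 h, 6 h and 16 h was -0.11 and the cap median -0.09. In the other clusters (4 pairs) they were 0.0086 and 0.03. At 16 h PSMC3 had 1.20 in the larger cluster (2 pairs) and 0.33 in the 1 remaining pair, and PSMB5 0.84 and 0.90.

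In NCM alone, the means of a core gene differed by 0.38 to 0.95 between its lowest and highest time, with a median of 0.52. For cap genes this range was 0.16 to 1.28, with a median of 0.51. The largest, for PSMC3, ran between -1.35 at 16 h and -0.08 at 30 min. An F test between the 7 times in NCM called 0 members (0.0145% of probes), with 1 member, PSMC3, at an unadjusted p of 0.0143 and an adjusted p of 1.00, against 1.67% of probes under 0.05. The NCM test had no term for experiment or array cluster, so differences between these entered its spread. The median Pearson r over 325 pairs of members was -0.01 across the 42 arrays and -0.01 across the 21 pair differences, against 0.00071 over all genes on the arrays. Within the core it was -0.04, within the cap 0.0049 and between core and cap -0.0094. Single pairs of members ran between -0.64 and 0.78 on the arrays and between -0.65 and 0.73 in the pair differences, both highest between PSMB2 and PSMD1. The arrays share batches of cells, and these values are descriptions.

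The 6 genes with more than 1 probe show how well a single probe represents a gene. The 4 probes of PSMA5 carry the same accessions, as do the 4 of PSMB6, and over these 12 probe pairs r across the 42 arrays ran between -0.19 and 0.72, with a median of 0.29. For the 21 pair differences the median was 0.22. The 6 probe pairs with different accessions, of PSMB2, PSMB7, PSMC2 and PSMD10, had r between -0.43 and 0.40, with a median of -0.12. Probes of a gene thus differed widely, and the SD of the difference between 2 probes of the same accessions was 0.45 to 0.76 log2 units.

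**Figure D5:**
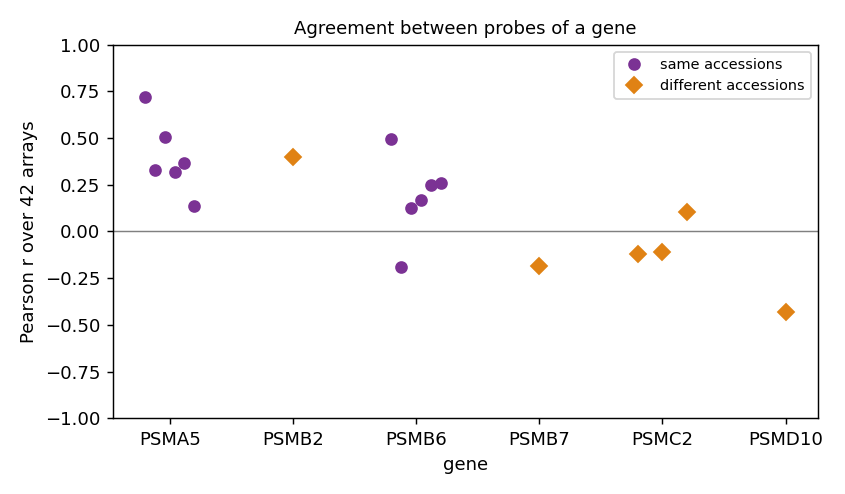
Pearson r over the 42 arrays between each pair of probes of a gene, for the 6 members with more than 1 probe, by whether the probes carry the same accessions. The 12 pairs with the same accessions lie between -0.19 and 0.72, and those with different accessions between -0.43 and 0.40.

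The genes around the proteasome were read from lists. Of 23 genes of the ubiquitin system (ubiquitin, activating and conjugating enzymes, shuttle factors and deubiquitinases) 12 were measured and 0 passed the test at any time or in the mean over 3 times (background 0.0434% in the mean), where 6 lay above 0 and the smallest unadjusted p was 0.288, for USP14. Of 13 regulators and assembly factors 8 were measured and 1 passed, in the mean. This was PSME1, a subunit of the 11S activator that interferon induces, which rose in 9 of 9 pairs and by 0.73 on average (SE 0.13, adjusted p = 0.0471). That mean was chosen with earlier results of these data known, so its adjusted p is not that of a planned test. The 9 pairs in it were also treated as independent, with no term for experiment. The changes of PSME1 were 0.37 at 3 h, 0.86 at 6 h and 0.95 at 16 h. It did not pass at any single time (limma adjusted p = 0.833 at 6 h and 0.510 at 16 h). PSME1 passed under 4 of 13 alternatives, with changes between 0.66 and 0.92 and adjusted p between 0.0229 and 1.00. Its adjusted p was 0.231 without experiment 1, 1.00 without experiment 2, 0.478 without experiment 3 and 1.00 with no replicate block. The chaperone POMP had 0.01 and the proteasome inhibitor PSMF1 -0.12 in the mean, and neither passed. PSMB10, the inducible counterpart of PSMB7, was the only immunoproteasome gene of 3 that was measured. It had 0.37 at 3 h, 1.09 at 6 h (SE 0.22, adjusted p = 0.339) and 0.60 at 16 h (adjusted p = 0.942), and 0.69 in the mean (SE 0.13, adjusted p = 0.0525), against 0.05 at 6 h and -0.11 in the mean for PSMB7. PSMB10 was above 0 in 9 of 9 pairs and past the threshold under 3 of 13 alternatives, with changes between 0.44 and 0.83 and adjusted p between 0.0309 and 1.00. At T0 it already had 0.25, and the mean less that change was 0.44. The other probe of PSMB7 gave 0.07 at 6 h and 0.16 in the mean, where it was higher in 6 of 9 pairs. The difference between PSMB10 and PSMB7 was not tested.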

How the data were processed

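The authors deposited 1 linear intensity per probe and array. How arrays were made, scanned, background corrected or scaled is not given in the sources used here. Intensities were quantile normalized on the linear scale, because the SDs of the array medians (0.31, log2) and interquartile ranges (0.36) passed the limit of 0.1. The 1st percentile that the arrays then had in common, 0.0812, served as a floor before taking log2. Values below 0 made up at most 2.12% of an array. All 42 arrays were used, no column lacked a sample (0), and 0 arrays were identical. Median correlations of an array with the others lay between 0.723 and 0.892.

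Gene names come from the platform annotation. Of 7336 single-gene probes 7322 matched RefSeq's gene table by gene ID, and 0 symbols changed.

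Tests used limma 3.58.1 in R 4.3.3, with 1 term per pair, 1 CM effect per time, 14 residual and 6.26 prior degrees of freedom, two-sided, and Benjamini-Hochberg adjustment over the 13824 probes of a contrast (threshold 0.05). Plots used Python 3.11.15 and matplotlib 3.10.9. The pairing comes from the labels. In the values, each array's deviation from its group mean was correlated with that of its partner: r was 0.308 to 0.754 and exceeded 0.1 in 21 of 21 pairs. The fit was tested on simulated data.

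The named genes are any member past the threshold, the core and the cap gene with the smallest p at each time and in the mean over 3 h, 6 h and 16 h, the brightest and dimmest of each, members in 1 direction in 9 of 9 pairs, further probes of these genes, and PSMB5, PSMB6, PSMB7, PSMD14, PSMD4, PSMD2 and PSMC1 to PSMC6 where measured. From the lists, members past the threshold are named, otherwise the smallest p. PSMA2, PSMA3, PSMD1, PSMD3, POMP and PSMF1, and the values without overlap, were named after their values were seen. The members and lists were chosen with earlier results of these data known. Alternatives were other normalizations, floors, probe choices, filters, no replicate block, each time alone, the change minus that at T0, and each replicate left out.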

Additional observations from a re-analysis of the deposited data

How the results depend on the processing

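Under the alternatives 0 members passed limma's threshold at any time, and the lowest adjusted p of a member was 0.318. The fit with no replicate block ignores the pairing of cultures and gives the same changes by construction, because every pair is complete. Its tests called 0 members at each time. The filter of dim probes and another estimate of the spread also leave the change of a kept gene the same. The mean of probes does so for a gene with 1 probe. Leaving out the 2 least correlated pairs and using only the pairs of the largest array cluster were chosen after seeing the data. At 15 min, 30 min, 1 h, 3 h and 16 h the largest cluster held the pairs of experiments 2 and 3. Its changes there are the same as those without experiment 1. The mean over 3 h, 6 h and 16 h could not be fitted from each time alone, and the change minus that at T0 has no value at T0. PSME1 in the mean over 3 h, 6 h and 16 h lost its call under 9 of 13 alternatives. For the values below the cause was not tested.

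The median change of the cap at T0, 0.07 in the reported fit, was 0.041 without PSMD5 and PSMD10, with the floor at the 10th percentile and with the mean of a gene's probes. It was 0.10 without the dimmest 25% of members or of probes, -0.11 with values as deposited and 0.0013 with median centring. It was -0.0034 without the 2 least correlated pairs and 0.13 in the largest cluster. With median centring the core median was -0.25 at 15 min, -0.22 at 30 min and 0.022 at 1 h, and the cap median -0.22 at 3 h and 0.019 at 6 h. With values as deposited the cap median was -0.12 at 3 h. The core minus cap difference at 16 h was 0.064 with either scaling, against -0.041. With the change at T0 subtracted, the core median at 15 min was -0.27, and the cap median -0.19 at 30 min, -0.18 at 1 h, -0.085 at 3 h and -0.20 at 6 h. With the mean of probes the cap median at 6 h was -0.029. At 1 h the core median was -0.15 without the 2 least correlated pairs and in the largest cluster. In that cluster, at 6 h the core median was 0.19, the cap median -0.23 and their difference 0.42, and at 16 h the cap median was -0.12.

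Leaving out each replicate in turn gave core medians between -0.083 and 0.058 at T0, -0.24 and -0.15 at 15 min, -0.10 and -0.038 at 30 min, -0.15 and -0.069 at 1 h, -0.34 and 0.0034 at 3 h, -0.13 and 0.088 at 6 h, -0.19 and 0.13 at 16 h, and -0.18 and 0.067 in the mean over 3 times. Cap medians ran between -0.0034 and 0.086 at T0, between -0.14 and 0.067 at 30 min, between -0.19 and -0.057 at 3 h, between -0.20 and 0.0034 at 6 h, between -0.12 and 0.13 at 16 h, and between -0.098 and 0.027 in the mean. The difference at 6 h ran between -0.14 and 0.29. With 3 pairs per time, precision is limited by how few arrays there are.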
